A study of Mus musculus with 8 samples.

Results

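The genes described here encode the proteins of the cytosolic ribosome. They were chosen by symbol alone, as protein-coding genes named Rpl or Rps with a number and an optional suffix, together with Rpsa, Rplp0, Rplp1 and Rplp2. Rps6k kinase genes, genes of the mitochondrial ribosome and pseudogenes were left out. The rule took 84 of the 43629 gene identifiers in the count table, and the rule uses no measured value. Of the 84 genes, 49 encode proteins of the large (60S) subunit, 32 proteins of the small (40S) subunit and 3 the acidic stalk of the large subunit. Rps3a1, Rpl22l1 and Rpl7l1, whose symbols end in a digit after the suffix, were counted as members. Fau and Rack1 encode subunit proteins under other names and are described apart.

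RNA was measured in 8 libraries of follicular B cells sorted from mouse spleen, 4 in each of 2 groups, with a gate the labels write as B220+ CD93+ CD21+ CD23+. Both groups carried the Rosa26GFPZFP36L1 allele. The group labelled GFP-ZFP36L1 also carried CD23cre in the heterozygous state, and the control group carried no Cre per the labels. Cre driven by CD23 acts in B cells that express that receptor, and its presence cannot be told apart here from expression of the GFP-ZFP36L1 protein. The ages of the mice are not given in the sources used here. ZFP36L1 is an RNA-binding protein that recognises AU-rich sequence in 3′ untranslated regions and promotes decay of the bound mRNA.

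A ribosome joins a small subunit, which reads the mRNA, to a large subunit, which forms the peptide bond and releases the chain through an exit tunnel. Ribosomal protein mRNAs start with a C followed by a run of pyrimidines, the terminal oligopyrimidine (TOP) tract, through which the kinase mTORC1 and the protein LARP1 control their translation and stability. A resting follicular B cell keeps these mRNAs abundant and makes more ribosomes when it is activated.

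The start sites of 6 members hold a pyrimidine run near the annotated start, at differing positions. They are shown with 10 bases before the annotated start and 20 bases from it onwards, from RefSeq on GRCm38.p6. Capitals mark the longest run of at least 5 pyrimidines that begins with C. The window of Rps27 also holds a shorter run of this kind, left in lower case.
Rps27 (chr3:90213629-90213658, minus strand): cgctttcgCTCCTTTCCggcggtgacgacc
Rplp2 (chr7:141447641-141447670, plus strand): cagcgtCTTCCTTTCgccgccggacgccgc
Rpl13a (chr7:45128726-45128755, minus strand): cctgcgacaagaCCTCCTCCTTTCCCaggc
Rpl22l1 (chr3:28805498-28805527, plus strand): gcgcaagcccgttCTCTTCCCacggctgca
Rps2 (chr17:24720053-24720082, plus strand): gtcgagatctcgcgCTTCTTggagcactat
Rplp0 (chr5:115559457-115559486, plus strand): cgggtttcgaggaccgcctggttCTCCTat
The marked run in Rps27 began 2 bases before the annotated start and that in Rplp2 4 bases before it. The runs in Rpl13a, Rpl22l1, Rps2 and Rplp0 began at bases 3, 4, 5 and 14 of the annotated transcript, so not at its first base. Whether any of these runs acts as a TOP tract was not tested. The run in Rpl13a, 14 bases long, was the longest of these 6.

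Of the members whose window at an annotated start held no such run, 2 are shown. They hold the lowest (Rpl24) and the highest (Rpl7l1) log2 fold change described below. Some of the starts listed for Rps19 and Rpl22 also held no run.
Rpl24 (chr16:55966265-55966294, plus strand): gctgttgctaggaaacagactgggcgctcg
Rpl7l1 (chr17:46782637-46782666, minus strand): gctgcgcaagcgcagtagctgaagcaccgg
The absence of a run says only that these letters do not occur at the start site that the table lists.

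Sites of the kind ZFP36L1 binds were rare in these genes. The heptamer TATTTAT, read on the sense strand, occurred in the longest annotated 3′ UTR of 2 of 81 tested members (2.47%), against 29.6% of 10974 tested genes with a 3′ UTR. Members' 3′ UTRs were also shorter, with a median of 221 nt against 1348 nt. The 2 members with the heptamer were Rps16, which held 3 overlapping copies in a UTR of 516 nt, and Rps15a, with 1 copy in a UTR of 4728 nt. Capitals mark the heptamers in these windows, which come from GENCODE transcripts on GRCm38.
Rps16 (chr7:28352831-28352859, plus strand): gcttgctTATTTATTTATTTATttttact
Rps15a (chr7:118105425-118105445, minus strand): atggtttTATTTATgactatg
Rps16, a 40S protein that reaches the decoding centre, was at 1008, 841.6, 775.0 and 816.3 CPM, the count per 1000000 counts of the library, in control replicates 1 to 4. The labelled replicates 1 to 4 gave 876.4, 772.5, 778.2 and 608.0 CPM. The groups overlapped, and its log2 fold change, labelled libraries over controls, was -0.18 ± 0.11 (SE) with a 95% interval of -0.43 to 0.06. Rps15a had a log2 fold change of -0.09 ± 0.10 (SE). Both values lay within the range of the members without the heptamer.

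Total counts per library ran from 38947758 to 51024233. All 10 B cell markers examined were detected, with a summed level of 21250 to 22890 CPM in the controls and 19130 to 21530 CPM in the labelled libraries. Of the markers of other cells, the 4 plasma cell genes summed to 100.0 to 125.2 CPM in the controls and 96.41 to 122.8 CPM in the labelled libraries. Over all libraries the sums were 5.626 to 7.042 CPM for 7 myeloid, 1.790 to 10.07 CPM for 4 erythroid and 3.259 to 5.580 CPM for 3 dendritic cell markers. They were at most 0.477 CPM for 6 T cell and 0.463 CPM for 3 NK cell markers, of which Ncr1 and Gzma were at 0, and their part in the results was not tested. Zfp36l1 itself ran against the label, at 523.1 to 599.4 CPM in the controls and 401.8 to 470.7 CPM in the labelled libraries, so the groups are named by their labels throughout. Control replicate 1 and GFP-ZFP36L1 replicate 4 stood apart from the other libraries in the level of the ribosomal protein genes, at the high and low end, and the share of counts and the median fold change of these genes are given with and without them.

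Of all counts, ribosomal protein genes took 7.74, 6.90, 6.39 and 6.43% in control replicates 1 to 4. The labelled libraries, in the order of their replicate numbers, gave 7.34, 6.27, 6.64 and 5.76%. The group means were 6.86% ± 0.628 and 6.502% ± 0.665 (SD, n = 4 each), and the ranges overlapped over most of their width. The highest library was a control and the lowest a labelled one, but the second highest was GFP-ZFP36L1 replicate 1. The spread within each group, 1.35 and 1.58 percentage points from lowest to highest library, was larger than the distance between the group means. That sets single libraries beside means, so it does not test the difference between the groups. Without control replicate 1 the control mean was 6.57%, and without GFP-ZFP36L1 replicate 4 the labelled mean was 6.75%. Leaving out the highest control or the lowest labelled library must bring the group means closer together. Some other omissions moved them apart. Without GFP-ZFP36L1 replicate 1 the labelled mean was 6.22%, and without control replicate 3 the control mean was 7.02%. In bulk RNA, fewer cells of a type and less RNA per cell cannot be told apart.

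**Figure D1:**
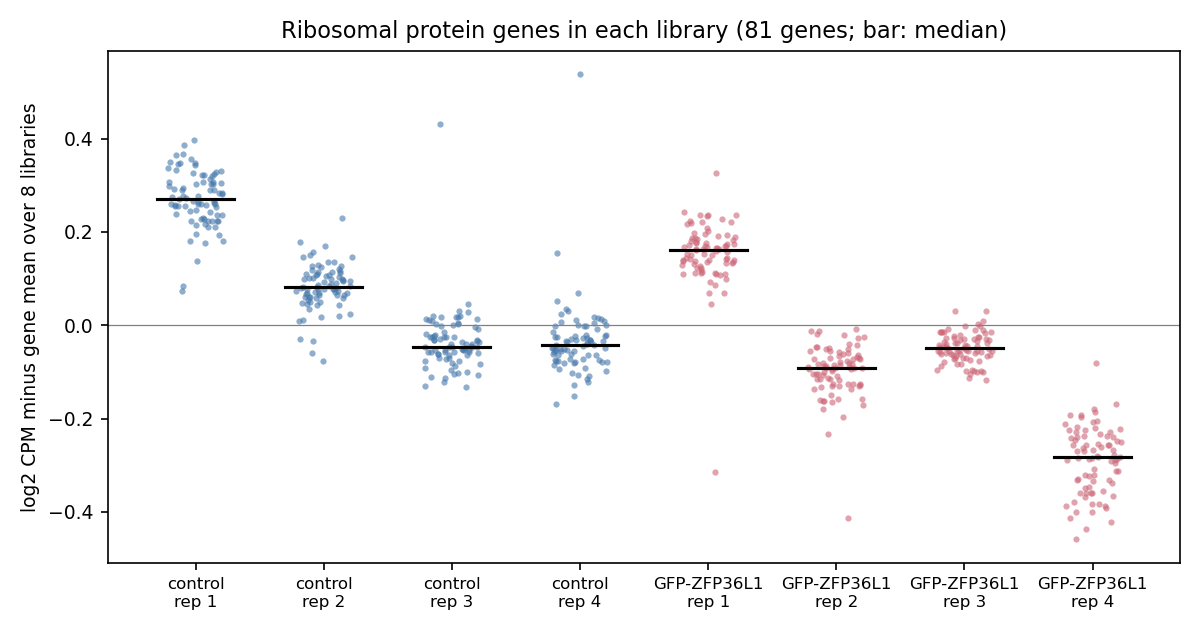
Each point is 1 of the 81 tested ribosomal protein genes, placed by its log2 CPM in a library minus its own mean over the 8 libraries, and the bar is the median of the 81. The genes of a library lie close together, control replicate 1 sits highest and GFP-ZFP36L1 replicate 4 lowest, and the other 6 libraries of the 2 groups interleave.

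Of the 84 genes, 81 passed the filter on low counts and were tested. None of the 81 was called by the edgeR quasi-likelihood test at a Benjamini-Hochberg adjusted p under 0.05, against 3.12% of all 13035 tested genes (1.83% higher and 1.30% lower). DESeq2 called 0 members against 6.67% of its genes, and limma voom called 0 against 8.16%. At an unadjusted p under 0.05 there were 2 members, Rpl24 and Rpl3, where 17.3% of all tested genes were. Adjusted p-values of the members (edgeR, Benjamini-Hochberg) ran from 0.219 to 0.946.

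The log2 fold change was below 0 in 80 of 81 members, against 52.1% of all tested genes. The members of a library share that library's deviation, so these 80 are not independent observations. The median was -0.13, with quartiles of -0.16 and -0.11, where the median over all tested genes was -0.01. The typical standard error of a member, 0.10, was close to the size of the median itself. Medians were -0.13 for the 46 tested large subunit genes, -0.13 for the 32 small subunit genes and -0.10 for the 3 stalk genes. Without control replicate 1 the median was -0.061 and 71 members were negative, and without GFP-ZFP36L1 replicate 4 it was -0.057 with 75 negative. Without GFP-ZFP36L1 replicate 1, the other high library, the median was -0.205. Of the 30 members the naming rule chose, 22 had a log2 fold change that was smaller by over 1.5 times, or of the other sign, without control replicate 1. The same held for 21 of 30 without GFP-ZFP36L1 replicate 4, and 15 of 30 were larger by over 1.5 times without GFP-ZFP36L1 replicate 1.

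The intervals bound what the test could have missed. Among the 81 members, 79 had a 95% interval that held 0, and no interval reached below -0.61 or above 0.18 on the log2 scale except that of Rpl24, which reached -0.74. The groups did not overlap in 1 of 81 members, Rpl24, which was lower in all labelled libraries, where 4.98% of all tested genes were lower and 11.2% separated in either direction. In the authors' deposited table, 0 of 82 members had an adjusted p under 0.05, against 6.63% of all genes with a value there. The authors' deposited table gave a median log2 fold change of -0.11 over these 82, with 81 below 0 and a smallest adjusted p of 0.154, for Rpl3. The DESeq2 fit here gave a median of -0.13 over 82 members, and put Rpl24 at -0.39 where the authors' table had -0.23. The 2 DESeq2 versions differ and the authors' settings are not given, so the sizes are not directly comparable.

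**Figure D2:**
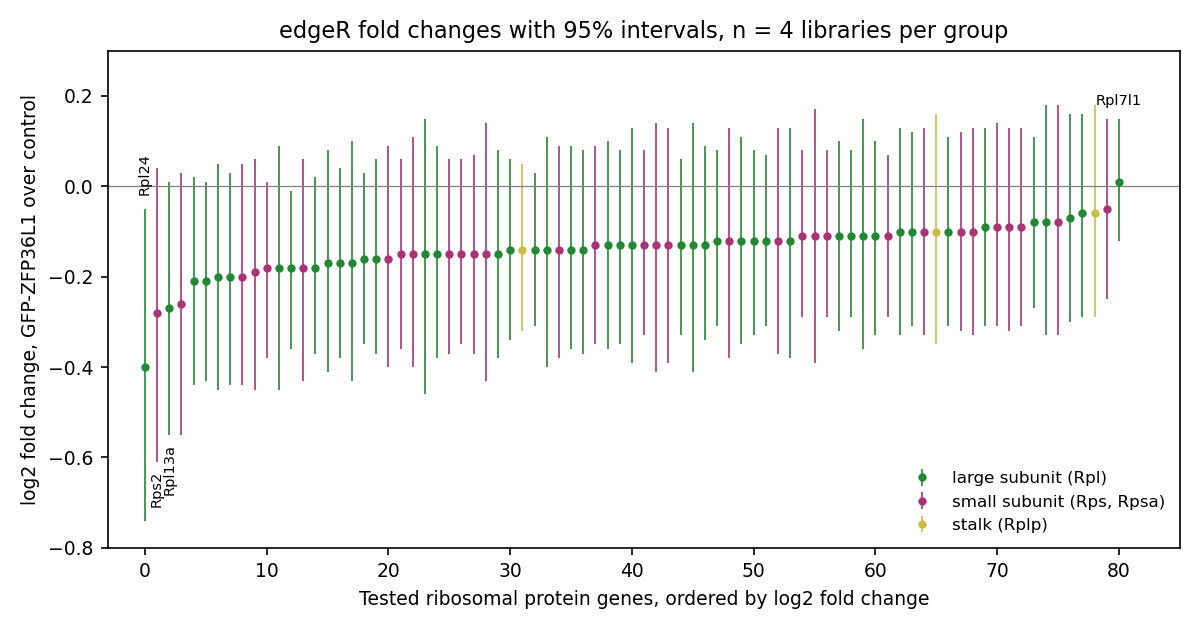
Points are log2 fold changes, labelled libraries over controls, of the 81 tested members in order of size, with 95% intervals from edgeR (n = 4 libraries per group) and colours for the subunit. Nearly all points lie just below 0 and 79 of the 81 intervals hold 0, with Rpl24 lowest at -0.40 and Rpl7l1 highest at 0.01.

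The stalk proteins Rplp0, Rplp1 and Rplp2 recruit elongation factors to the large subunit. Rplp0, the anchor of the stalk, was at 1536, 1406, 1383 and 1307 CPM in the controls, listed by replicate number here and below, and at 1459, 1226, 1250 and 1193 CPM in the labelled libraries. Of the labelled libraries 3 lay below every control, and replicate 1 of the labelled group lay above 3 of the controls. The log2 fold change was -0.14 ± 0.08 (SE), with an interval of -0.32 to 0.05, and -0.091 without control replicate 1. Rplp1, which dimerises with Rplp2, was at 1509, 1185, 1183 and 1188 CPM in the controls and at 1409, 1195, 1222 and 1039 CPM in the labelled libraries. Here 3 controls lay close together and control replicate 1 stood far above them. Rplp1 had a log2 fold change of -0.06 ± 0.11 (SE), and 0.037 without control replicate 1. Rplp2 had 852.9 CPM in control replicate 1 and 650.7 to 661.3 CPM in the other controls, against 557.0 to 788.3 CPM in the labelled group, giving a log2 fold change of -0.10 ± 0.12 (SE).

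In the small subunit, Rpsa, the protein also known as the laminin receptor precursor, was at 1945, 1825, 1735 and 1663 CPM in the controls and at 1853, 1625, 1638 and 1518 CPM in the labelled libraries. The groups overlapped, with a log2 fold change of -0.11 ± 0.08 (SE) and an interval of -0.29 to 0.07. Rps19, the gene most often mutated in Diamond-Blackfan anaemia, was at 667.6, 573.4, 511.2 and 491.2 CPM in the controls and at 577.5, 452.9, 468.8 and 368.6 CPM in the labelled libraries. Its log2 fold change of -0.26 ± 0.13 (SE) was among the lowest, at -0.17 without control replicate 1 and -0.16 without GFP-ZFP36L1 replicate 4, and the labelled replicate 1 lay above 3 of the 4 controls. Rps7, at 1107 to 1339 CPM against 1016 to 1321 CPM, had the log2 fold change nearest to 0 in the small subunit, -0.05 ± 0.09 (SE).

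Rps2, which lines the mRNA entry channel, did not follow the other members. It was at 236.8, 211.8, 224.7 and 324.5 CPM in the controls and at 248.0, 167.7, 208.7 and 195.5 CPM in the labelled libraries. The highest library was control replicate 4, in which most members lay below their own mean, and the lowest was GFP-ZFP36L1 replicate 2. The log2 fold change was -0.28 ± 0.15 (SE), with an interval of -0.61 to 0.04, and it was -0.13 without control replicate 4. Windows of 100 bases of the Rps2 transcript recur in 36 other annotated genes and make up 58.5% of its windows.

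Another 4 small subunit genes with roles of their own, picked after their values were seen, gave values close to the median of the members. Rps6, the target of the S6 kinases, had 554.6 to 668.9 CPM in the controls and 502.5 to 632.6 CPM in the labelled group, giving a log2 fold change of -0.11 ± 0.08 (SE). Rps3, at the mRNA entry site and also linked to DNA repair, had a log2 fold change of -0.13 ± 0.09 (SE). Rps27a, made as a fusion with ubiquitin, had -0.15 ± 0.10 (SE), and Rps14, the gene lost in the 5q- syndrome, had -0.16 ± 0.11 (SE).

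In the large subunit, Rpl3, a core protein near the peptidyl transferase centre, was at 1408, 1356, 1258 and 1287 CPM in the controls and at 1324, 1113, 1169 and 1064 CPM in the labelled libraries. Only GFP-ZFP36L1 replicate 1 reached into the range of the controls. The log2 fold change was -0.18 ± 0.08 (SE), with an interval of -0.36 to -0.01 and an edgeR quasi-likelihood p of 0.260 after Benjamini-Hochberg adjustment. Rpl13a, which also acts in a translation-silencing complex induced by interferon gamma, was at 2299, 2107, 1738 and 1817 CPM in the controls and at 2016, 1596, 1655 and 1327 CPM in the labelled libraries. Its groups overlapped through the labelled replicate 1, and its log2 fold change was -0.27 ± 0.13 (SE). Exons of Gm45713, Mir5121 and Snord33 cover 748 bp (35.4%) of the merged exons of Rpl13a on the same strand, so its count is uncertain to that extent.

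The other large subunit genes with small p-values were Rpl12, Rpl18 and Rpl28. Rpl12, which sits at the base of the stalk, had 907.6 to 1123 CPM in the controls and 726.6 to 1002 CPM in the labelled group, giving a log2 fold change of -0.21 ± 0.10 (SE). Rpl18 and Rpl28 had log2 fold changes of -0.21 ± 0.10 and -0.18 ± 0.09 (SE). None of these 3 separated the groups. At the other end of the order, Rpl30 and Rpl21 had log2 fold changes of -0.06 ± 0.10 and -0.07 ± 0.11 (SE), and both turned positive without control replicate 1, at 0.011 and 0.014.

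Rpl5 and Rpl11 travel together with the smallest ribosomal RNA and bind the p53 regulator MDM2 when they are not built into ribosomes. Rpl5 was at 1420, 1256, 1165 and 1154 CPM in the controls and at 1269, 1138, 1119 and 1006 CPM in the labelled libraries, and Rpl11 had 542.3 to 672.7 CPM against 480.3 to 630.8 CPM. Their log2 fold changes were -0.14 ± 0.09 and -0.12 ± 0.09 (SE). Rpl4, which reaches into the exit tunnel, had -0.11 ± 0.09 (SE), and Rpl41, which encodes one of the smallest proteins known in the mouse, had -0.17 ± 0.12 (SE). These 4 genes were picked after their values were seen, and the groups overlapped in each.

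Rpl24, a protein at the interface of the subunits, gave the lowest log2 fold change and the lowest level of all tested members. It was at 1.528, 1.328, 1.737 and 1.351 CPM in the controls and at 1.036, 1.150, 1.222 and 1.096 CPM in the labelled libraries. Every labelled library lay below every control, and the highest library was control replicate 3. The log2 fold change was -0.40 ± 0.16 (SE), with an interval of -0.74 to -0.05, and its edgeR quasi-likelihood p was 0.219 after Benjamini-Hochberg adjustment. This value rests on 457 counts over the 8 libraries, while the next lowest tested member, Rps27l, had 7103. Gm28037, a gene counted at 0 in every library, shares 484 bp (47.0%) of the exons of Rpl24 on the same strand. Of the 100-base windows of Rpl24, 80.1% occur in another annotated gene, a share that can include the overlap with Gm28037. The count of this identifier is therefore uncertain as a measure of the gene's mRNA.

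Across the 8 libraries the members varied together. The mean deviation of the members from their own means, on the log2 scale, was 0.27, 0.08, -0.04 and -0.03 in the controls and 0.16, -0.10, -0.05 and -0.29 in the labelled libraries. The large and small subunit genes gave the same deviation to within 0.02 in every library. The level was highest in control replicate 1 for 77 of 81 members, against 20.4% of all tested genes, and lowest in GFP-ZFP36L1 replicate 4 for 79 of 81, against 24.3%. The difference between the groups made up 19.57% of the variance of this mean over the 8 libraries.

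Some libraries of the same group differed by more than the median log2 fold change between the groups, -0.13, and others by less. Control replicates 3 and 4 differed by a median of 0.00, and GFP-ZFP36L1 replicates 2 and 3 by -0.05. Control replicate 1 exceeded control replicate 4 by a median log2 difference of 0.32, or 1.25-fold, and was the higher of the pair for 80 of 81 members. GFP-ZFP36L1 replicate 1 exceeded replicate 4 of its group by 0.44, or 1.36-fold, again for 80 of 81 members. By contrast, control replicate 4 and GFP-ZFP36L1 replicate 3 differed by a median of 0.00, with 42 members higher in the control and 39 lower. The widest separation, between control replicate 1 and GFP-ZFP36L1 replicate 4, was 0.54, or 1.46-fold.

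Individual genes departed little from this common movement. The median standard deviation of a member over the 8 libraries was 0.176 on the log2 scale, and 0.049 after the mean of the members was taken out of each library. As a description over 8 libraries that share depth and scaling, the median Pearson correlation of a member with the mean of the others was 0.977, and it exceeded 0.9 for 77 of 81 members. The 4 below that were Rpl24 at 0.288, Rps2 at 0.350, Rpl7l1 at 0.771 and Rpl13 at 0.871.

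Features of the libraries are given beside this level, and their part in it was not tested beyond these values. The slope of log2 level on transcript length over genes other than the members was -0.049 per doubling of length in control replicate 1 and 0.043 in GFP-ZFP36L1 replicate 4, and between -0.011 and 0.013 in the other libraries. In the main fit the median log2 fold change was -0.131 for the members and -0.007 over all genes. With a smooth trend in length and GC content removed from each library, these medians were -0.093 and -0.025. With the title's sample number added to the fit as a linear covariate they were -0.072 and -0.007. Mitochondrial transcripts took 3.85 to 4.36% of counts in the controls and 3.61 to 4.11% in the labelled libraries, and immunoglobulin genes took 1.49 to 1.72% in all libraries.

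**Figure D3:**
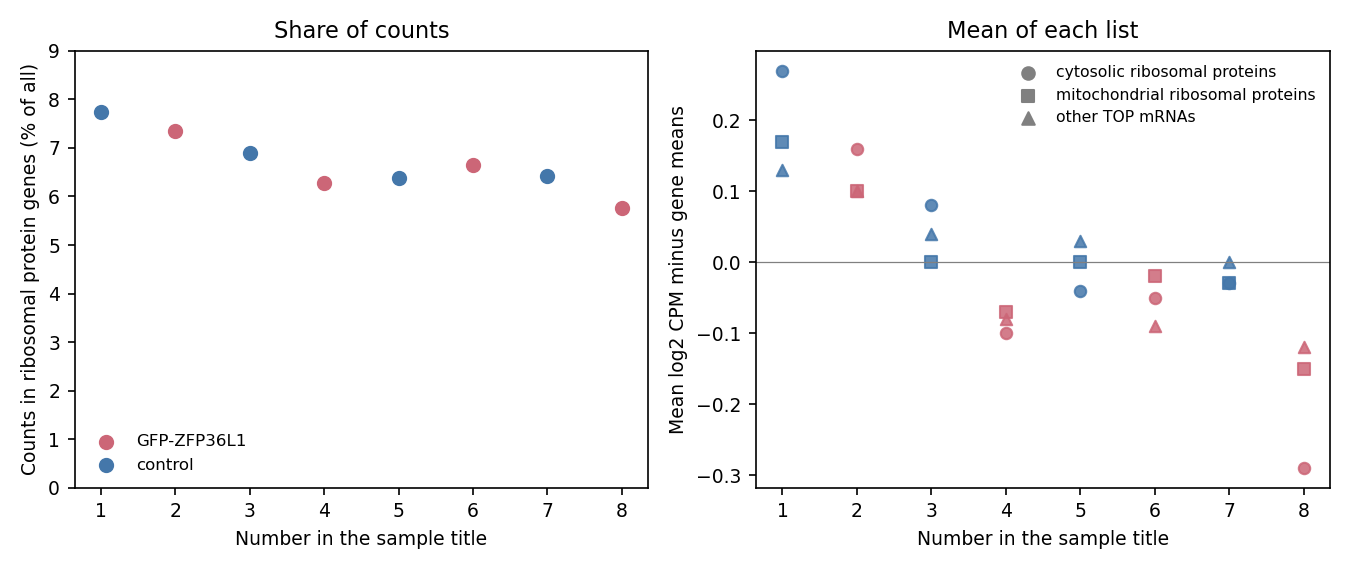
The left panel plots the share of all counts taken by ribosomal protein genes and the right panel the mean log2 deviation of 3 gene lists, both against the number in the sample title, with colour for the group. Control replicate 1 (number 1) is highest in both panels, GFP-ZFP36L1 replicate 4 (number 8) is lowest, and the cytosolic list spans more of the scale than the mitochondrial ribosomal and other TOP lists.

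The genes whose level over the 8 libraries was most like the mean of the members, by Pearson correlation, were Cox4i1 at 0.994, Tmsb4x at 0.992, Psmb4 at 0.990, Higd2a at 0.989, Snx17 at 0.988 and Plekhj1 at 0.987. Cox4i1 encodes a subunit of cytochrome oxidase, Tmsb4x the actin-binding thymosin beta 4 and Psmb4 a subunit of the proteasome. Cox4i1 was at 181.4, 157.2, 146.6 and 144.8 CPM in the controls and at 164.5, 141.6, 143.8 and 117.9 CPM in the labelled libraries, the same order of libraries at both ends. Of 12234 genes compared, 612 had a correlation above 0.9, so the pattern was not limited to these 6.

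Levels can be compared between genes per length, here as reads per kb of merged exons, scaled so that all genes of a library sum to 1000000. The median over tested members was 1076 on this scale in the controls, with medians of 880.4 for the large subunit, 1158 for the small subunit and 2447 for the stalk. The highest levels in the controls were those of Rplp1 at 7306 ± 646.0, Rps15 at 7167 ± 390.1, Rps29 at 5435 ± 574.8 and Rps3a1 at 4935 ± 276.0 (SD, n = 4). Rplp1 and Rps15 lay within their spread of each other, as did Rps29 and Rps3a1. The lowest were those of Rpl24 at 4.165 ± 0.5397, Rps27l at 73.13 ± 6.785, Rpl7l1 at 84.07 ± 1.022 and Rpl21 at 133.9 ± 11.65 (SD, n = 4). The scale depends on the annotation, since the median was 1458 with the longest transcript and 1734 with the principal transcript as length. The order moved too: Rps29 led at 6399 with the longest transcript, before Rps15 at 6182 and Rplp1 at 5722. With the principal transcript Rps29 at 6685 and Rps15 at 6251 came before Rps18 at 5191 and Rplp1 at 5058. Rpl24 was lowest with all 3 lengths. Between the groups, the median log2 ratio of the members was -0.047 on this scale, with 72 below 0 and 9 above. Over all tested genes the median was 0.08 and 26.6% were below 0. The members thus lay below the other genes by about the same distance as in CPM. Of the 9 above 0, only Rpl7l1 was also above 0 in CPM, so the sign of the others depends on the scale.

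Some members are paralogs that can take the place of a standard ribosomal protein. Rpl3l, a muscle form of Rpl3, and Rpl10l, a testis form of Rpl10, had 0 counts in every library, which allows at most 0.0588 to 0.0770 CPM by library if 3 counts are taken as the limit of 0. Rpl39l, also a testis form, had 79 counts in all and did not pass the filter. These 3 were the members not tested, and they were low in both groups. The other paralogs were measured against their partners as log2 ratios of CPM, with a two-sided exact permutation test, whose smallest possible p with 70 ways to assign the libraries is 0.0286.

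Rpl7l1, which is linked to assembly of the large subunit, was the member with the highest log2 fold change, 0.01 ± 0.06 (SE). It was at 107.4, 103.4, 98.73 and 97.70 CPM in the controls and at 114.9, 101.5, 97.96 and 96.55 CPM in the labelled libraries, a narrower spread than that of Rpl7. Its log2 ratio to Rpl7 was -4.15, -4.07, -4.07 and -4.02 in the controls and -4.01, -3.93, -4.02 and -3.83 in the labelled libraries. Of the labelled libraries 3 lay above every control and replicate 3 lay level with the highest control. The mean ratio was 0.129 higher in the labelled libraries, with an exact permutation p of 0.0571 and 0.143 after Benjamini-Hochberg adjustment over 5 pairs.

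Rpl22l1 was at 36.3% of Rpl22 in the controls and 34.8% in the labelled libraries. Rpl22 itself, an RNA-binding protein needed for lymphocyte development, had 369.6 to 450.5 CPM in the controls and 331.2 to 429.3 CPM in the labelled libraries. The log2 ratio of the pair differed by -0.060 between the groups (exact permutation p = 0.429, adjusted 0.536), and by -0.088 to -0.016 with 1 library left out. Rpl36al was at 29.7% of Rpl36a in the controls and 28.3% in the labelled libraries, a difference of -0.068 (exact permutation p = 0.0857, adjusted 0.143). Rps27l, a p53 target, was at 5.30% and 5.48% of Rps27, a difference of 0.047 (exact permutation p = 0.629, adjusted 0.629).

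Rps4l, annotated as a transcribed pseudogene and so no member, was set against Rps4x as the last pair. Its log2 ratio was -8.59, -8.32, -9.12 and -8.33 in the controls and -9.15, -9.92, -9.78 and -8.91 in the labelled libraries. The highest labelled library lay above the lowest control, so the groups overlapped. The difference was -0.848 (exact permutation p = 0.0571, adjusted 0.143), and Rps4l reached 0.265% of Rps4x in the controls and 0.150% in the labelled libraries. No pair passed the adjusted threshold of 0.05, but with these group sizes it can be passed only if at least 3 of the 5 pairs separate completely, so this says little about any single pair.

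**Figure D4:**
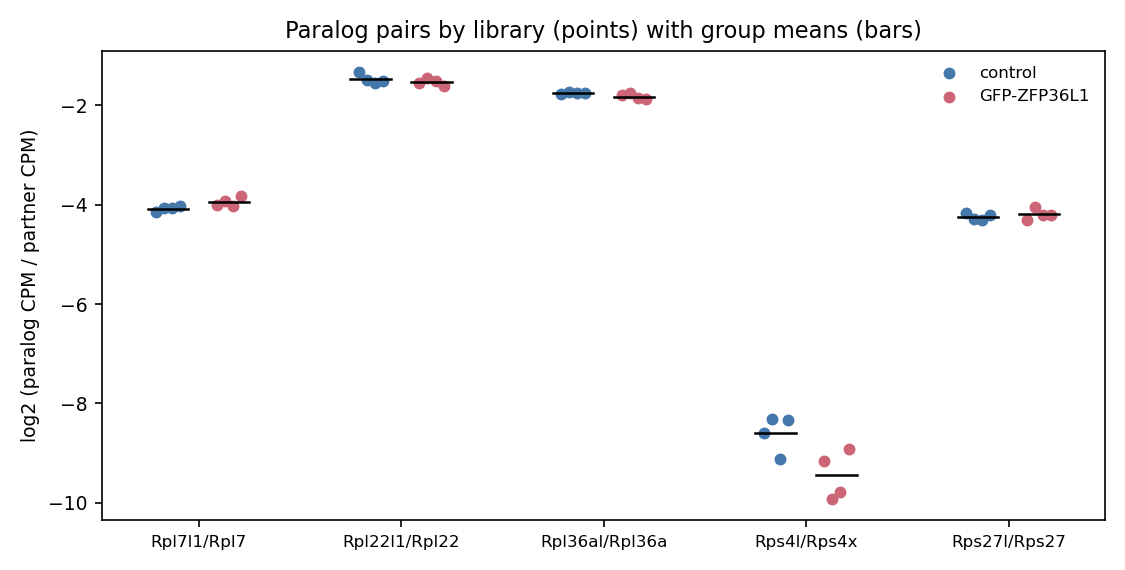
Points are the log2 ratio of a paralog's CPM to that of its partner in each library, with bars at the mean of each group of 4 libraries. The ratios of Rpl22l1, Rpl36al and Rps27l to their partners lie at similar heights in both groups, Rpl7l1 lies slightly higher in the labelled libraries, and Rps4l is the lowest and most scattered.

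Counts of ribosomal protein genes are exposed to sequence that they share with other annotated genes, whether copies elsewhere or genes that overlap them. The shares below do not separate these 2 kinds. A median of 33.4% of the 100-base windows of a member's principal transcript also occurred in a transcript of another annotated gene, and this share was above 0 in 76 of 84 members and above 50% in 31. It reached 98.4% in Rps27, 91.1% in Rpl5, 87.1% in Rpl10a and 87.0% in Rpl9. Members without any such window included Rpl22, Rps3, Rps21, Rps27l, Rpl3l, Rpl10l and Rpl39l. The 264 copies and pseudogenes named after members took 0.231 to 0.332% of counts, and 0 of the 56 tested were called by edgeR's quasi-likelihood test, with a median log2 fold change of -0.17 and 4 at an unadjusted p under 0.05. DESeq2 called 2 of them and limma voom 1. Of the genes each tested, edgeR, DESeq2 and limma voom called 3.12, 6.67 and 8.16%, and 17.3% had an unadjusted edgeR p under 0.05.

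The pair of Rps27 and its retrogene Rps27rt, picked after their values were seen, shows how counts can divide between copies. Rps27rt, which the symbol rule does not take, held 505781 counts over the 8 libraries and Rps27 132449. Rps27rt was at 1828, 1585, 1304 and 1335 CPM in the controls and at 1639, 1363, 1381 and 1068 CPM in the labelled libraries. Rps27 was at 437.7, 419.8, 367.5 and 341.4 CPM in the controls and at 468.2, 325.6, 348.0 and 307.4 CPM in the labelled libraries. The log2 fold changes were -0.15 ± 0.14 and -0.11 ± 0.13 (SE). The deposited table does not say how reads that match both were assigned, so the level of Rps27 is uncertain, as is the ratio of Rps27l to it.

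**Figure D5:**
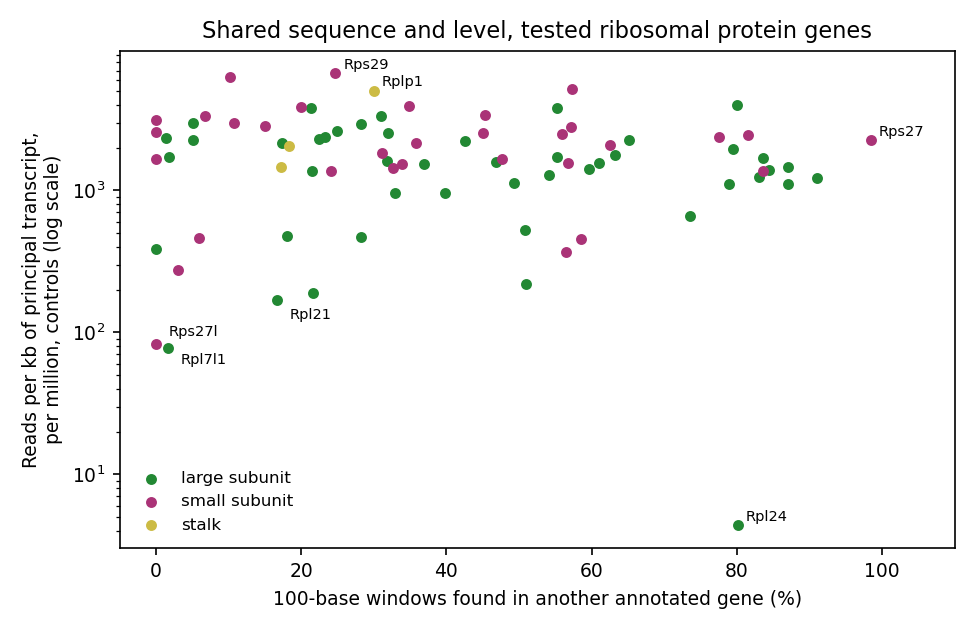
Each point is a tested member, with the share of its 100-base windows that recur in another annotated gene on the horizontal axis and its level in the controls, per kb of principal transcript scaled in the same way, on a log scale. Levels at low and high shares overlap, Rpl24 lies far below all others at a share of 80.1%, and Rps27 has the highest share at 98.4%.

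Members were often hosts of small nucleolar RNAs, which guide modification of ribosomal RNA. A snoRNA gene lay inside 30 of 84 members on the same strand (35.7%), against 1.79% of 11008 tested protein-coding genes, and Rpl4 held 5 and Rpl13a 4. RefSeq start sites were found for 64 of 84 members (76.2%). This is below the 80% needed, so a comparison of promoter words between members and all genes is void. The shares of members describe these 64 alone. Shares over all genes are printed for scale, and no difference is drawn from them. A pyrimidine run of at least 5 bases beginning with C within 10 bases of a start occurred in 39 of the 64 (60.9%) and in 34.4% of 27025 genes. The word CCGGAAG, which matches ETS factors such as GABPA, was found on either strand of the 300-base promoter in 26 (40.6%), and in 9.93% of all promoters. The word GGGCGG, which matches Sp1, was found in 40 (62.5%), and in 38.2% of all. AAGATGGCG, which matches YY1, was found in 4 (6.25%), and in 1.64%, while TATAAA was found in 7 (10.9%), and in 15.7%.

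Subunit proteins without an Rp symbol gave values like those of the members. Rack1, a scaffold on the small subunit, was at 1687, 1554, 1451 and 1415 CPM in the controls and at 1602, 1364, 1409 and 1222 CPM in the labelled group, giving a log2 fold change of -0.13 ± 0.09 (SE). Fau, made as a fusion with a ubiquitin-like protein, had -0.16 ± 0.12 (SE). Neither was called by edgeR's quasi-likelihood test, DESeq2 or limma voom, and neither had an unadjusted p under 0.05.

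Other mRNAs with a TOP start encode elongation factors, initiation factor subunits and RNA-binding proteins. Of the 21 tested, 0 were called by edgeR's quasi-likelihood test, 20 had a negative log2 fold change with a median of -0.10, and 2 had an unadjusted p under 0.05. Over all tested genes 3.12% were called, 52.1% were negative and 17.3% had an unadjusted p under 0.05. Hnrnpa1, a splicing regulator, was at 705.0, 726.8, 766.6 and 759.5 CPM in the controls and at 668.7, 621.6, 645.9 and 675.8 CPM in the labelled libraries. Every labelled library lay below every control, which held for this 1 of the 21 genes and for 4.98% of all tested genes. Unlike the ribosomal protein genes, Hnrnpa1 was lowest of the controls in replicate 1. It had a log2 fold change of -0.18 ± 0.06 (SE) and an edgeR quasi-likelihood p of 0.137 after Benjamini-Hochberg adjustment, while DESeq2 (adjusted p 0.0126) and limma voom (0.0180) called it. Eif4a2, a helicase of translation initiation, Eef2, the translocase of elongation, and Nap1l1, a histone chaperone, had log2 fold changes of -0.15 ± 0.06, -0.17 ± 0.09 and -0.15 ± 0.08 (SE).

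Of the 21 regulators of TOP mRNAs and of mTORC1, 0 were called by edgeR's quasi-likelihood test, DESeq2 or limma voom. Of the genes each tested, these called 3.12, 6.67 and 8.16%. By edgeR 3 regulators had an unadjusted p under 0.05, where 17.3% of all tested genes did. Log2 fold changes were positive in 12 and negative in 9, with a median of 0.02. Mtor itself was at 73.05, 78.04, 76.55 and 82.82 CPM in the controls and at 79.37, 83.83, 82.30 and 93.39 CPM in the labelled libraries, which overlapped, with a log2 fold change of 0.13 ± 0.06 (SE). Deptor, an inhibitor of mTOR, had 1.194 to 1.618 CPM in the controls and 1.643 to 2.485 CPM in the labelled libraries without overlap. Its log2 fold change was 0.46 ± 0.18 (SE) and rests on 616 counts over the 8 libraries. Mlst8, an mTORC1 subunit, lay at 44.20 to 45.06 CPM in the labelled libraries, below the 45.95 to 50.53 CPM of the controls, with a log2 fold change of -0.11 ± 0.05 (SE). The groups did not overlap in these 2 of the 21 genes, where 11.2% of all tested genes separated in either direction. Myc, an activator of ribosomal protein genes, had 40.37 to 54.17 CPM in the controls and 33.93 to 47.39 CPM in the labelled group, giving a log2 fold change of -0.27 ± 0.11 (SE). The smallest Benjamini-Hochberg adjusted p among these 21 genes was 0.212 by edgeR.

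Mitochondrial ribosomal protein genes, which serve a separate ribosome, had a median log2 fold change of -0.06, which was not tested against that of the cytosolic genes. Of 77 such genes 76 were tested, and 0 were called by edgeR's quasi-likelihood test, DESeq2 or limma voom. Of the genes each tested, these called 3.12, 6.67 and 8.16%. By edgeR 2 had an unadjusted p under 0.05, where 17.3% of all tested genes did. A negative log2 fold change was found in 65, where 52.1% of all tested genes had one. Their mean deviation was 0.17 in control replicate 1 and -0.15 in GFP-ZFP36L1 replicate 4, the same libraries at the ends. Mrpl54, Mrps35, Mrpl3 and Mrpl30 had the smallest p-values, with log2 fold changes of -0.23 ± 0.09, -0.17 ± 0.06, -0.13 ± 0.06 and -0.16 ± 0.08 (SE). Mrps35 was the one with no overlap, at 16.23 to 18.33 CPM in the labelled libraries and 18.51 to 19.93 CPM in the controls. Over all tested genes 11.2% separated in either direction.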

How the data were processed

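RNA was extracted from sorted follicular B cells and made into stranded mRNA libraries, per the labels' protocols, and 8 libraries were analysed. The submitters' processing notes name build GRCm38, the aligner TopHat2 2.0.12, the read trimmer Trim Galore, the counter HTSeq, and DESeq2 1.10.1. No source used here gives their settings or whether the counting used strand. Raw counts per gene were deposited by the authors for 43629 Ensembl identifiers, and every test used these counts. The authors also deposited normalized values (unit signal). Each equals its raw count over a single library factor, to a relative tolerance of 5.7e-10. The authors' deposited comparison table gives log2 fold changes and p-values, copied here for comparison, and a signed fold column, treated as a score and not used. All 8 count columns were matched to a library by its title, and 0 entries named no gene.

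Symbols, gene types and exons came from GENCODE mouse release M21, which had 42462 of the 43629 identifiers. The model fits used edgeR 4.0.16 under R 4.3.3: filterByExpr, TMM factors, robust quasi-likelihood fit with group as the sole term over all genes, and Benjamini-Hochberg adjustment, with calls at an adjusted p under 0.05. CPM are on TMM-scaled library sizes, and log2 CPM used a prior count of 2. DESeq2 1.42.0 and limma 3.58.1 (voom with quality weights) were alternatives. Summaries and exact permutation tests were computed in Python 3.11.15 with pandas 2.3.3 and numpy 2.4.6. The fitting steps were tested on simulated data.

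The symbol rule for the members uses no measured value, but this gene family and the lists were chosen with earlier results of these data known. Always named were Rplp0, Rplp1, Rplp2, Rpsa, Fau, Rack1 and the paralog pairs. To these were added the 6 members with the largest and the 6 with the lowest log2 fold change, the 8 with the smallest p, the 4 with the highest and the 4 with the lowest level per length, and those beside the filter. Up to 4 genes with the smallest p in each other list and the 6 genes most like the members completed the rule. Replicate numbers follow accession order and pair nothing. Nothing in the labels ties each library to its own animal. The p-values therefore reflect only how these libraries vary, which may be technical. Between libraries of a group the counts differed by more than sampling noise, with a chi-square per degree of freedom of 7 to 61.7, so none was counted as a repeat of another. Total counts of 38947758 to 51024233 per library left counting error small for the tested members other than Rpl24. The intervals given with the log2 fold changes come from the edgeR fit. They reflect how these libraries vary as well as counting error. Some genes that the rule names are not reported here.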

Additional observations from a re-analysis of the deposited data

Results flagged for a closer look

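In 3 of 114 groups of 4 libraries examined, 1 library lay far from the other 3, and chance flags about 1 in 20 such groups. Rplp1 was at 1509 CPM in control replicate 1, where the other 3 controls lay between 1183 and 1188 CPM. Rplp2 was at 852.9 CPM in the same library, where the others lay between 650.7 and 661.3 CPM. Both stalk genes are members, and control replicate 1 was the highest library for 77 of 81 members. Eef2, an elongation factor gene outside the members, was at 3147 CPM in control replicate 2, where the other controls lay between 3008 and 3016 CPM. The part of any property of these libraries in the 3 values was not tested.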

How the results depend on the processing

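No paired analysis was run because the labels state no pairing, and the sample titles number the libraries from 1 to 8 with no number shared by the groups. The numbers alternate between the groups, and neighbouring numbers were not treated as pairs. The call of 0 members, in either direction, held under all 18 alternative fits and without members whose symbol ends in a digit, and the smallest adjusted p of any member over these fits was 0.0515, without GFP-ZFP36L1 replicate 1. The median log2 fold change of the members stayed negative in every fit, between -0.205 and -0.057. Over all genes 407 were called; DESeq2 called 876, limma voom 1064, a linear term in the title's sample number gave 1030, and leaving out 1 library gave 79 to 948. Its split of 238 higher and 169 lower became 260 and 279 with the length and GC trend removed. Among other TOP mRNAs 1 gene was called with DESeq2, limma voom and the title number (Hnrnpa1 in each, at -0.18, -0.21 and -0.19) and without GFP-ZFP36L1 replicate 1 (Eef2, at -0.25), a range of 0 to 1 with 1 library left out. Rps4l was called with DESeq2 at -0.94 and without GFP-ZFP36L1 replicate 1 at -1.13. The median level per length moved from 1076 to 1458 with the longest and 1734 with the principal transcript, the latter added after the data were seen. The ratio of Rps27l to Rps27 ran from -0.002 to 0.085 with 1 library left out, with the opposite sign without GFP-ZFP36L1 replicate 2. A window of 25 bases gave 84.4% of members with a pyrimidine run. Windows of 50 bases gave a median of 49.3% found in another annotated gene. Both shares rise by construction. Among the 30 members the rule names, the sign turned for 8 under at least 1 alternative, and without control replicate 1 alone 10 of all 81 members were not negative. With 1 library left out, log2 fold changes ran from -0.13 to 0.037 for Rplp1, -0.18 to 0.0091 for Rplp2, -0.14 to 0.0019 for Rpl36a, -0.17 to 0.010 for Rps27l, -0.16 to 0.014 for Rpl21, -0.13 to 0.013 for Rpl30, -0.11 to 0.013 for Rps7 and -0.037 to 0.046 for Rpl7l1. The positive values arose without control replicate 1 or GFP-ZFP36L1 replicate 4, except for Rpl7l1, which was negative without GFP-ZFP36L1 replicate 1 and control replicates 3 and 4. With the length and GC trend removed, Rplp1 was at 0.023 and Rpl7l1 at -0.0015. On the level per length, a ratio added after the data were seen, 72 of 81 members were negative, where 26.6% of all tested genes were. The cause of these changes was not tested. With 4 libraries per group and a typical standard error of 0.10, differences of the size of the median were not detectable gene by gene.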
